A study of Mus musculus with 5 samples.

Results

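The type I interferon response genes described here are 51 interferon-stimulated genes, taken by name from the 39056 genes of a bulk RNA-seq count table. The members are a list of names, drawn up when earlier results of these data were known. All 51 were in the table, and 47 of them had enough counts to be tested. The libraries were made from LSK cells, the lineage-negative, Sca-1-positive, Kit-positive fraction of mouse bone marrow that contains blood stem cells and multipotent progenitors. About 12000 cells were sorted for each library from mice of C57BL/6 background at postnatal day 15. The 3 null libraries came from mice labelled null for Gabbr1, the gene of a subunit of the GABA-B neurotransmitter receptor, and the other 2 came from WT mice. No interferon, virus or other treatment is named in the labels for either genotype. The labels do not say which part of Gabbr1 is deleted or what sex the mice were. They give 4 mice of each genotype in 1 place and 3 null and 2 WT in another, and do not tie a library to an animal. The p-values therefore cover variation among libraries, which may be technical.

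Type I interferons are secreted proteins that bind the receptor made of Ifnar1 and Ifnar2. The receptor's kinases Jak1 and Tyk2 phosphorylate STAT proteins, among them Stat2, which joins Irf9 in the factor ISGF3. ISGF3 binds a short promoter motif, the interferon-stimulated response element, and switches on genes that sense viral RNA, block viral replication or feed back on the pathway. Blood stem cells express a part of this set without infection, and prolonged interferon is known to drive dormant stem cells into division. Sca-1, encoded by Ly6a and used in the LSK gate, is itself induced by interferon in mice.

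The promoters of the members were searched for the core of the response element, and short stretches are printed for some of those with matches. The core searched was GAAA, any 2 bases, and GAAA again, on both strands, with overlapping matches counted. Promoter windows of 300 bases (250 before the annotated start and 50 from it on) were found for 38 members in RefSeq sequences of build GRCm38.p6, and 19 of these 38 (50%) held the motif, against 3.99% of 27025 genes with a window and 3.44% of 32851 windows. The stretches below are 80 bases long, run 5′ to 3′ on the gene's own strand, and carry the matched bases in capitals. A match that reads TTTC, 2 bases, TTTC lies on the opposite strand.
Isg15 (chr4:156200846-156200925, minus strand): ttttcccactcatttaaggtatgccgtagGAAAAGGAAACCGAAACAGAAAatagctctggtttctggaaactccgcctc
Ifit1 (chr19:34640759-34640838, plus strand): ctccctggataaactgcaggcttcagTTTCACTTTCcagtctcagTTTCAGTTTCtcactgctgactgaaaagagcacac
Ifit3 (chr19:34583355-34583434, plus strand): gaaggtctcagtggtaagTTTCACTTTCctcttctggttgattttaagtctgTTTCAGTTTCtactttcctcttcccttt
Ifit3b (chr19:34607751-34607830, plus strand): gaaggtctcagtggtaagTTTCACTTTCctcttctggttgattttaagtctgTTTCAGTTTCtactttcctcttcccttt
Oas1a (chr5:120907526-120907605, minus strand): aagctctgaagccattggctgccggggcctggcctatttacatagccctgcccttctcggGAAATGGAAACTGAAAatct
Oas1g (chr5:120887614-120887693, minus strand): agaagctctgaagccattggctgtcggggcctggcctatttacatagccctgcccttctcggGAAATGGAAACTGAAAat
Rsad2 (chr12:26456528-26456607, minus strand): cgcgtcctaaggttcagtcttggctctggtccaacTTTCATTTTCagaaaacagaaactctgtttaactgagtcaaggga
Bst2 (chr8:71537555-71537634, minus strand): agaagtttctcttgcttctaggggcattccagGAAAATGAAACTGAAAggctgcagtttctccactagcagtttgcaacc
Isg15 held 3 overlapping matches, and its stretch ended 28 bases before the start. Ifit3 and Ifit3b were identical over 80 of 80 bases of these stretches, and Oas1a and Oas1g over 77 of 78 aligned bases. These pairs of duplicated genes are alike in their transcripts too, so the split of reads between the copies is uncertain. A match is a description of the sequence, and binding was not measured.

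The members also lie close together in the genome. With a gap of at most 200000 bases between neighbours, 28 of the 51 fell into 10 clusters (coordinates in mm10). The largest held the 5 Ifit genes on chromosome 19 from 34550694 to 34650009. Another 4 members, Oas2, Oas3, Oas1g and Oas1a, shared chromosome 5 from 120730333 to 120907521, and Slfn5, Slfn8, Slfn2 and Slfn1 shared chromosome 11 from 82951349 to 83122670.

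Total counts ranged from 6972753 to 8150774 per library. Gabbr1 itself (chromosome 17, 37045966 to 37075067) had 289, 264 and 268 counts in null libraries 1, 2 and 3, against 402 and 403 counts in the WT libraries. Its log2 fold change, null over WT, was -0.59 ± 0.13 (SE, edgeR quasi-likelihood test, Benjamini-Hochberg adjusted p = 0.0361). Without null library 1 it was -0.65 (adjusted p in edgeR 0.0355). The call was lost on leaving out WT library 1 (adjusted p in edgeR 0.0722), WT library 2 (0.380), null library 2 (0.0802) or null library 3 (0.137). As the deleted part is not given, reads over the whole gene are no check of the labels. Null library 1 stood apart in its X and Y transcripts, which had the pattern of female cells there and of male cells in the other libraries. Xist had 22532 counts in it and no more than 21 elsewhere, and a sum over 4 Y-linked genes was 0 in it and 1140 or more elsewhere. It also had the highest level of neutrophil markers, given beside the results below. The comparison of the members between the groups is therefore given with and without null library 1, in which the part of these transcripts, of the neutrophil markers and of genotype cannot be told apart.

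The interferon response genes covered a wide range of levels without treatment, and each of the 47 tested members was read in all 5 libraries. Levels between genes are compared here as TPM (counts per kilobase of merged exons, scaled to the same sum in each library). Ly6e, a membrane-anchored protein that interferes with viral entry, was the most abundant at 548, 445 and 568 TPM in the null libraries, against 480 and 481 TPM in the WT libraries. Lgals3bp, a secreted glycoprotein, followed at 171, 136 and 157 TPM in the null libraries, against 167 and 204 TPM in the WT libraries. The ranges of these 2 genes did not overlap each other or that of the next member, Dtx3l. Below them, Dtx3l, Bst2, Epsti1, Ifi27, Rtp4, Irf9 and Ifi35 had mean TPM between 62.0 and 85.6, and each overlapped its neighbours in that order. 10 of the 51 members averaged over 50 TPM and 7 averaged under 5 TPM. The median member averaged 20.6 TPM, and the least abundant was Phf11d at 0.556 TPM.

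**Figure D1:**
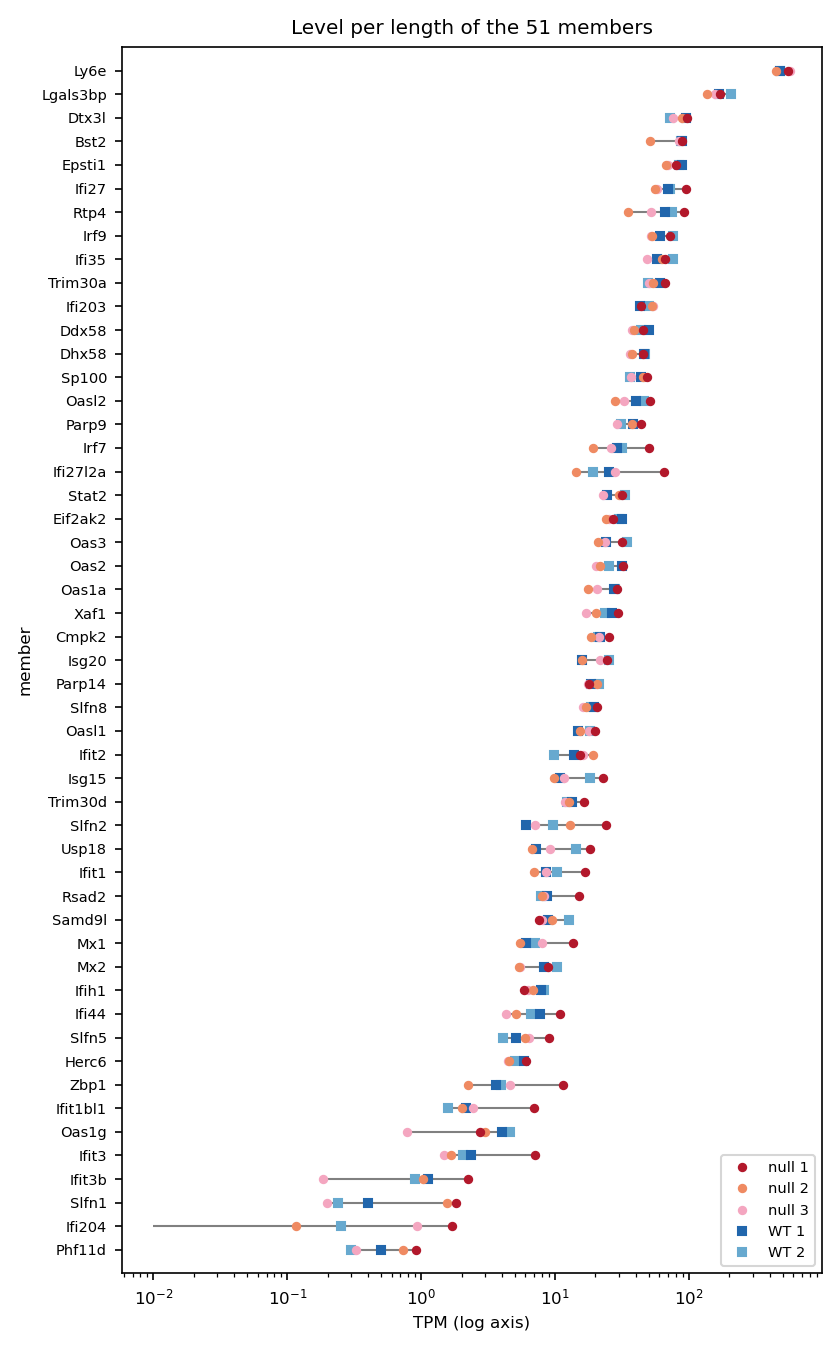
Level of each of the 51 members in TPM on a log axis, with 1 point per library (circles null, squares WT) and a line over the 5 libraries; the WT library with 0 counts of Ifi204 has no point. Ly6e stands above all other members, and null library 1 is the rightmost point for many members of low and middle level.

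No member was called different between null and WT. Of 47 tested members, 0 were higher and 0 lower at a Benjamini-Hochberg adjusted p under 0.05 in edgeR, against 2.15% and 0.334% of 13467 tested genes. DESeq2 also called 0 members, against 2.49% of genes higher and 0.379% lower, and limma-voom 0, against 1.62% higher and 0.26% lower. Before adjustment, 2 members were higher (Ifit2 and Slfn5) and 0 lower with p under 0.05, against 7.99% and 4.84% of tested genes. The median log2 fold change was 0.03 for the members and -0.004 for all tested genes, with 25 members positive and 22 negative. The groups of libraries did not overlap for 4 members, Ifit2 and Slfn5 above WT and Ifih1 and Oas1g below it, against 15.5% and 13.7% of tested genes. For 34 of the 47, the 95% interval of the fold change stayed within 2-fold in either direction, 36 intervals lay below a 2-fold rise and 45 above a 2-fold fall.

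**Figure D2:**
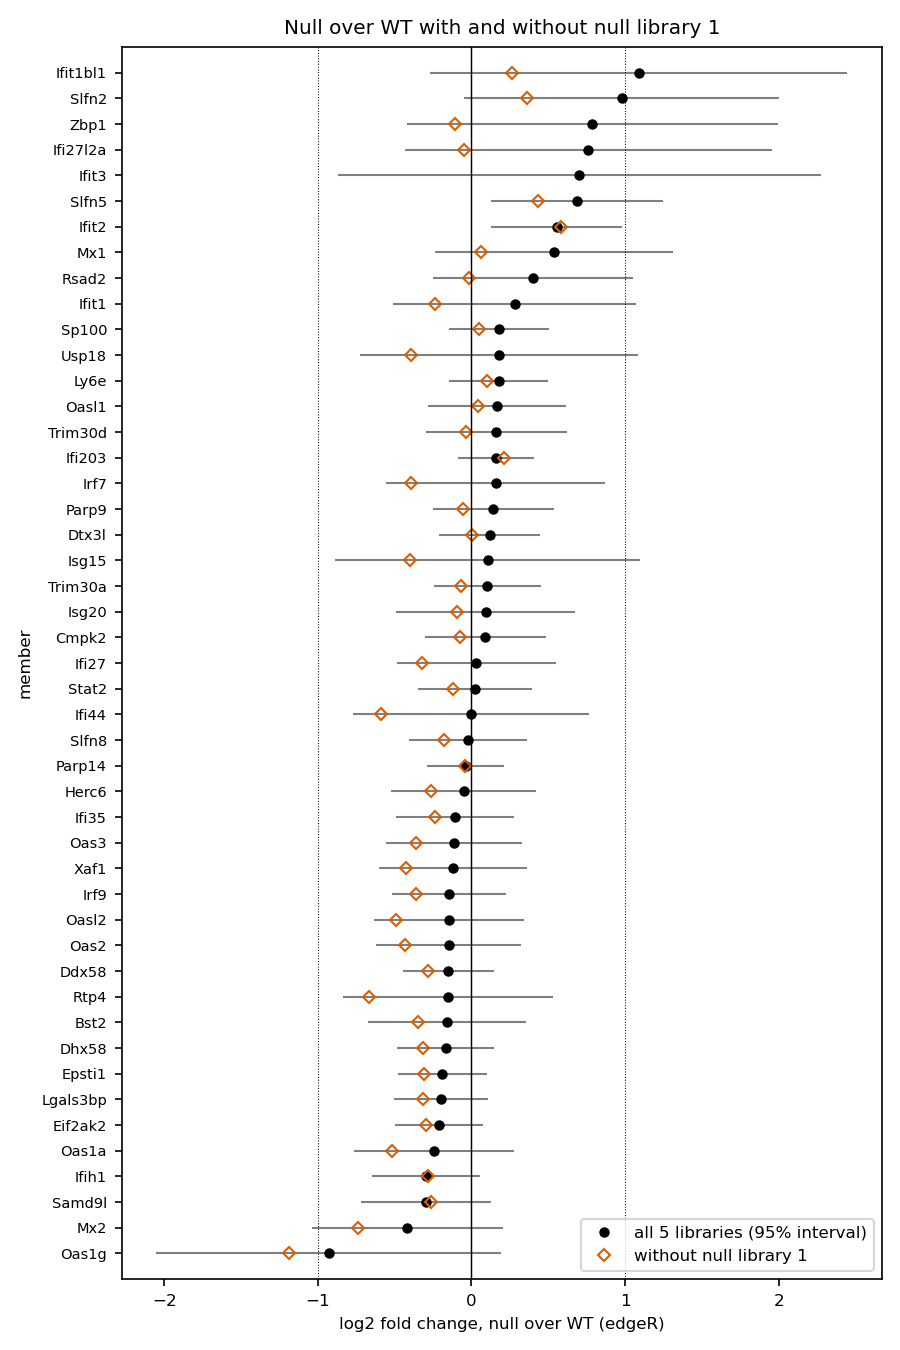
Log2 fold change, null over WT, of the 47 tested members from edgeR, with 95% intervals (black) and the value from a fit without null library 1 (orange diamonds; Ifit3 was not tested there). Dotted lines mark 2-fold; Ifit2 and Slfn5 are the members whose interval lies above 0, and most diamonds lie left of their black point.

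Within the null group the members did not stay together. Null library 1 was the highest of the 5 libraries for 35 of 47 tested members, against 17.8% of all tested genes. Null library 2 was the lowest for 25 of 47, against 19.8% of tested genes. Null library 1 exceeded both WT libraries for 36 members (32.6% of tested genes), while null library 2 was below both WT libraries for 31 (33.3% of tested genes) and null library 3 for 25 (33% of tested genes). Relative to the WT mean on the log2 scale, the median member was at 0.37 in null library 1, -0.33 in null library 2 and -0.18 in null library 3, against -0.001 and 0.001 in the WT libraries. All tested genes had medians between -0.002 and 0.012 in the null libraries. The spread among null libraries was wide for many members: the median range between the highest and lowest null library was 0.74 on the log2 scale, against 0.29 for all tested genes, and it was over 1 for 15 members. Summed over the 51 members, the level was 3016, 2130 and 2366 CPM (counts scaled by TMM library size) in null libraries 1, 2 and 3, against 2446 and 2431 CPM in the WT libraries.

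**Figure D3:**
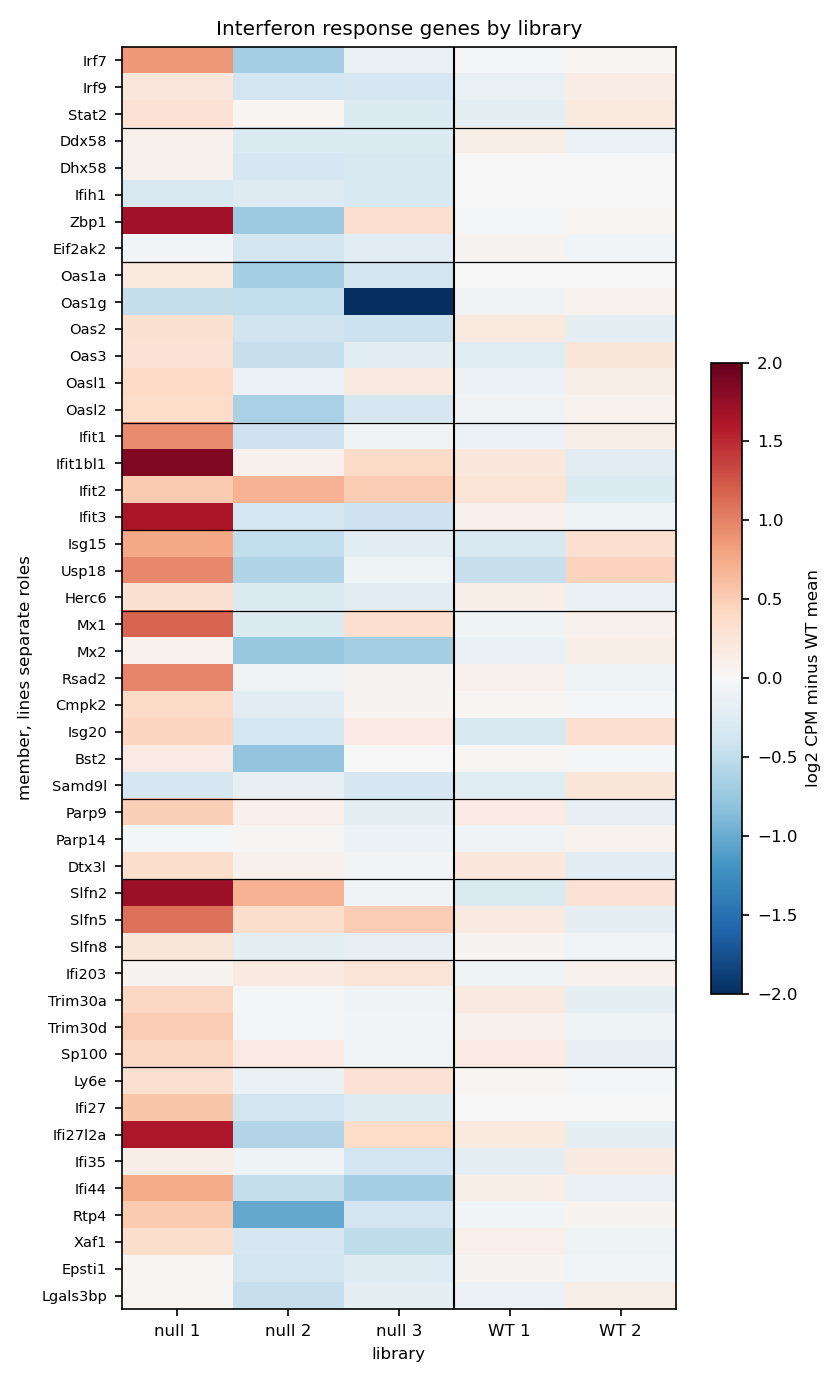
Log2 CPM minus the WT mean for the 47 tested members (rows, in order of role) in the 3 null and 2 WT libraries (columns), with colours limited at 2 in either direction. The column of null library 1 is mostly red and that of null library 2 mostly blue, while Ifit2 and Slfn5 are red in all 3 null libraries.

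Without null library 1 the remaining null libraries lay slightly below WT. 36 of 46 tested members had a negative log2 fold change and the median was -0.25, where 50.4% of 13201 tested genes were negative. As before, 0 members passed (edgeR, against 1.88% of genes higher and 0.386% lower), and DESeq2 and limma-voom called 0. Before adjustment, 1 was higher and 10 lower with p under 0.05, against 6.28% and 3.98% of tested genes. The 10 were Rtp4, Oasl2, Mx2, Xaf1, Irf9, Oas2, Ifi44, Oas1a, Oas1g and Lgals3bp, and the 1 was Ifit2. Rtp4 had the lowest p, with a log2 fold change of -0.67 and an edgeR adjusted p of 0.0845.

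All 3 transcription factors among the members were highest in null library 1, as were 3 of 7 STAT and IRF genes outside the members. Irf7, the factor that amplifies interferon production, was at 67.6, 23.0 and 33.3 CPM in null libraries 1, 2 and 3, against 35.9 and 38.0 CPM in the WT libraries. The null values spanned both sides of WT, and the log2 fold change was 0.16 ± 0.33 (SE; adjusted p in edgeR 0.903). Irf9, the DNA-binding subunit of ISGF3, was at 137, 90.3 and 93.7 CPM in the null libraries, against 106 and 130 CPM in the WT libraries. Stat2 was at 66.8, 56.3 and 44.9 CPM in the null libraries, against 47.6 and 62.5 CPM in the WT libraries. For both genes the groups overlapped, and null library 2 was the lowest for Irf9 and inside the WT range for Stat2, where null library 3 was the lowest. The log2 fold change of Irf9 was -0.15 ± 0.17 and that of Stat2 0.03 ± 0.17 (SE), with adjusted p of 0.805 and 0.976 in edgeR.

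Sensors of nucleic acids were close to WT or a little below it, with 1 exception by library. Ifih1, which encodes the RNA sensor MDA5, was the steadiest of them at 17.1, 17.8 and 17.1 CPM in the null libraries, against 21.0 and 21.5 CPM in the WT libraries. The null libraries were all below WT, but the log2 fold change of -0.30 ± 0.16 (SE) did not pass (edgeR adjusted p = 0.486). Ddx58 (RIG-I), Dhx58 (LGP2) and Eif2ak2, the kinase PKR that halts translation, had log2 fold changes between -0.21 and -0.15. Zbp1, a sensor of left-handed nucleic acids that can trigger cell death, was at 14.4, 2.51 and 5.43 CPM in the null libraries, against 4.18 and 4.41 CPM in the WT libraries. Its level in null library 1 was 3.35 times the WT mean and 5.74 times that of null library 2, the widest range among null libraries of all tested members (2.40 on the log2 scale). The log2 fold change of Zbp1 was 0.79 with all libraries and -0.11 without null library 1.

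The OAS enzymes make short chains of adenylate that activate the ribonuclease RNase L. 5 of the 6 members had a negative log2 fold change and none passed. Oas2 was at 50.5, 30.9 and 30.0 CPM in the null libraries, against 46.4 and 35.6 CPM in the WT libraries. Null library 1 was above both WT libraries and the other two null libraries were below them. Oas1a and Oasl2 had the same shape, with 19.5, 10.6 and 13.1 CPM of Oas1a and 115, 56.5 and 70.4 CPM of Oasl2 in the null libraries, against 17.0 and 16.9 CPM and 84.4 and 94.0 CPM in the WT libraries. Oas1g, the duplicate of Oas1a, had 17, 17 and 5 counts in the null libraries, against 25 and 24 counts in the WT libraries, and its log2 fold change of -0.93 ± 0.52 (SE) was the lowest of the members (edgeR adjusted p = 0.499). Oasl1, which in mice limits translation of Irf7, had the positive value of the family, 0.17 ± 0.21 (SE).

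The IFIT proteins bind foreign RNA ends, and their cluster on chromosome 19 included the tested members with the highest ratios of null library 1 to the WT mean. Ifit1 was at 15.7, 5.94 and 7.64 CPM in the null libraries, against 7.38 and 8.69 CPM in the WT libraries. Ifit3 had 33, 7 and 7 counts in the null libraries, against 11 and 8 counts in the WT libraries. Ifit1bl1 had 42, 11 and 15 counts in the null libraries, against 13 and 8 counts in the WT libraries. In these 3 genes null library 1 was far above the other 4 libraries, at 1.96, 3.53 and 4.09 times the WT mean for Ifit1, Ifit3 and Ifit1bl1. Their neighbour Ifit2 behaved differently, at 21.3, 24.1 and 21.1 CPM in the null libraries, against 17.9 and 12.2 CPM in the WT libraries. All null libraries of Ifit2 were above WT and null library 1 was not the highest. Ifit2 had the lowest p of all members, with a log2 fold change of 0.55 ± 0.20 (SE) and an interval of 0.13 to 0.98, but did not pass (edgeR adjusted p = 0.223, DESeq2 0.309, limma-voom 0.245). Without null library 1 it was 0.58 (adjusted p in edgeR 0.304). Ifit3b had 12, 5 and 1 counts in the null libraries, against 6 and 4 counts in the WT libraries, and was too low to test.

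Isg15 is a ubiquitin-like protein attached to other proteins, Herc6 its ligase in mice, and Usp18 the protease that removes it and dampens the interferon receptor. Isg15 was at 6.13, 2.38 and 2.96 CPM in the null libraries, against 2.71 and 4.41 CPM in the WT libraries. Usp18 was at 18.0, 5.94 and 8.51 CPM in the null libraries, against 6.52 and 12.7 CPM in the WT libraries. The WT libraries themselves differed by 0.66 and 0.93 on the log2 scale for Isg15 and Usp18, so that only null library 1 lay outside them on the high side. Log2 fold changes were 0.11 ± 0.46 for Isg15 and 0.18 ± 0.41 for Usp18 (SE; adjusted p in edgeR 0.959 and 0.913), and became -0.40 and -0.39 without null library 1. Herc6 was at 20.1, 13.3 and 13.8 CPM in the null libraries, against 17.7 and 14.8 CPM in the WT libraries.

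Among antiviral effectors, Mx1 and Mx2, dynamin-like GTPases of which Mx1 is defective in C57BL/6 mice, differed in shape. Mx1 was at 18.3, 6.60 and 10.1 CPM in the null libraries, against 7.51 and 8.54 CPM in the WT libraries. Mx2 was at 11.3, 6.20 and 6.66 CPM in the null libraries, against 9.72 and 11.8 CPM in the WT libraries. Thus null library 1 was more than 2 times the WT mean for Mx1 (a ratio of 2.27) and near it for Mx2 (1.05). Rsad2, which encodes viperin, and its neighbour Cmpk2, a mitochondrial nucleotide kinase, were highest in null library 1, at 23.1 CPM of Rsad2 and 37.3 CPM of Cmpk2 against WT means of 11.6 and 28.6 CPM. Bst2, the membrane tether that holds budding virus, was at 28.6, 14.6 and 25.4 CPM in the null libraries, against 26.0 and 25.2 CPM in the WT libraries. Here the deviation was the low value of null library 2, and the log2 fold change was -0.16 ± 0.24 (SE; adjusted p in edgeR 0.854). Samd9l, an interferon-induced regulator linked to marrow failure when mutated in humans, was at 14.5, 16.5 and 14.5 CPM in the null libraries, against 15.6 and 21.8 CPM in the WT libraries, and its log2 fold change was -0.30 ± 0.19 (SE; adjusted p in edgeR 0.585). The exonuclease gene Isg20 had a log2 fold change of 0.09 ± 0.27 (SE).

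**Figure D4:**
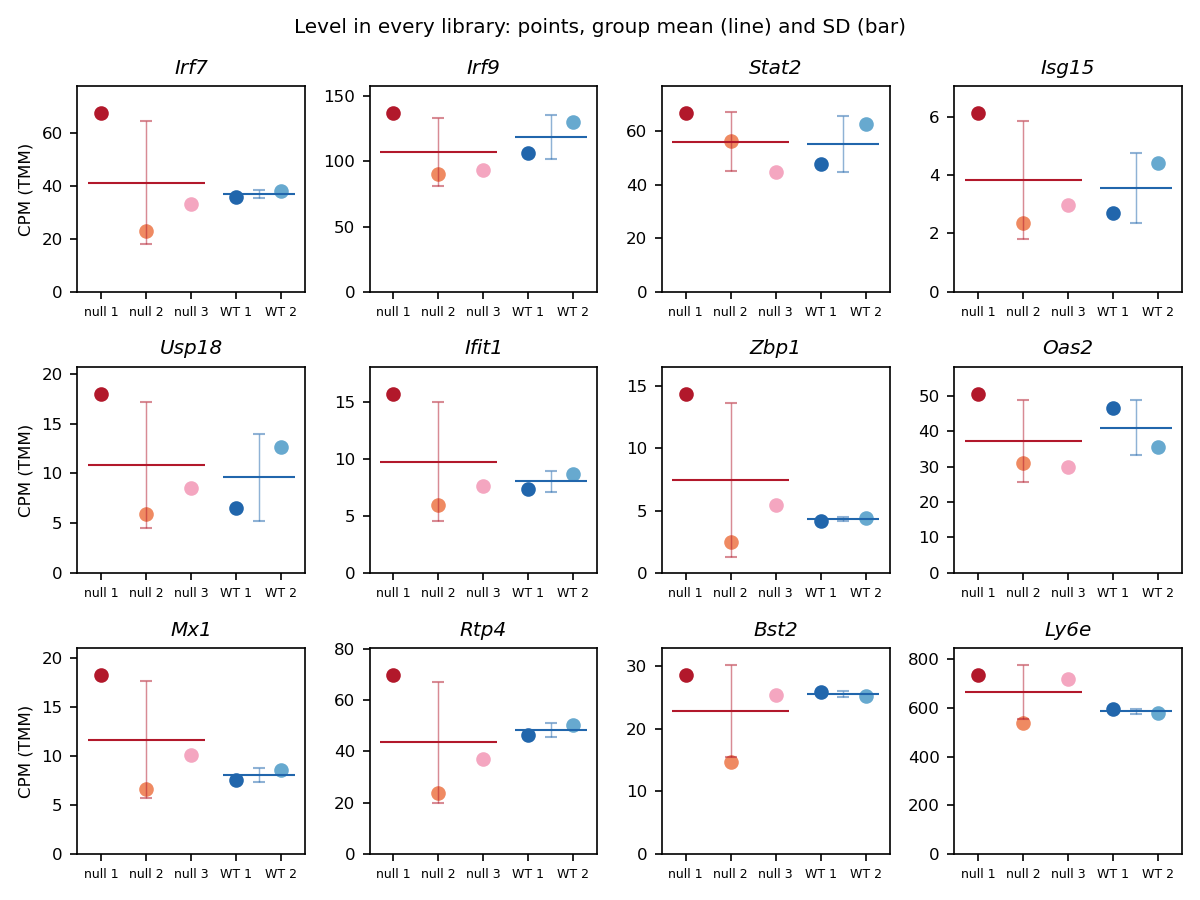
CPM of 12 members in the 3 null libraries and 2 WT libraries (points, linear axes from 0), with the group mean as a line and the SD as a bar. Null library 1 is the highest point in all 12 panels, and null library 2 is the lowest in all but Stat2 and Oas2.

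The Schlafen genes, which restrict growth and viral replication, included the members with the 2nd and 3rd lowest p. Slfn5 was at 20.3, 12.0 and 13.4 CPM in the null libraries, against 10.6 and 8.26 CPM in the WT libraries. All 3 null libraries were above WT, with a log2 fold change of 0.69 ± 0.26 (SE; adjusted p in edgeR 0.263), and 559 bases of its 6326 exon bases overlap an antisense gene. Without null library 1 the value for Slfn5 was 0.43 (adjusted p in edgeR 0.637). Slfn2, which keeps mouse T cells quiescent, was at 14.1, 6.86 and 3.95 CPM in the null libraries, against 3.32 and 5.13 CPM in the WT libraries. Its log2 fold change was 0.98 ± 0.47 with all libraries and 0.36 without null library 1 (edgeR adjusted p = 0.415 and 0.853). Slfn8 had a log2 fold change of -0.02, and Slfn1 had 9, 7 and 1 counts in the null libraries, against 2 and 1 counts in the WT libraries.

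The Parp and Dtx3l group and the nuclear proteins varied less, with median ranges among null libraries of 0.41 and 0.48 on the log2 scale. The IFIT group had 1.57 and the Isg15 group 1.28, mostly at lower counts. Ifit3 had 7 to 33 and Isg15 18 to 46 counts in the null libraries, where Parp14 had 441 to 460. Low counts widen such ranges, and their part in this difference was not tested. Parp14, an ADP-ribosyltransferase, was at 58.8, 60.7 and 54.7 CPM in the null libraries, against 56.6 and 62.5 CPM in the WT libraries. The groups overlapped throughout, and its log2 fold change was -0.04 ± 0.12 (SE; adjusted p in edgeR 0.941). Parp9 and Dtx3l, a pair that works as 1 complex and shares 458 exon bases on opposite strands, had log2 fold changes of 0.14 ± 0.18 and 0.12 ± 0.15 (SE). Ifi203, a DNA-binding HIN-200 protein, was at 104, 114 and 120 CPM in the null libraries, against 94.5 and 107 CPM in the WT libraries. Here null library 1 was the lowest of the null libraries. Trim30a, Trim30d and the nuclear body gene Sp100 had log2 fold changes between 0.10 and 0.18. Ifi204, a relative of Ifi203, had 16, 1 and 9 counts in the null libraries, against 0 and 2 counts in the WT libraries, and Phf11d had 11, 8 and 4 counts in the null libraries, against 6 and 3 counts in the WT libraries, both too few to test.

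The remaining induced genes split into steady and variable members. Ly6e was at 737, 537 and 721 CPM in the null libraries, against 595 and 580 CPM in the WT libraries, so that 2 of 3 null libraries were above WT and null library 2 was below it (log2 fold change 0.18 ± 0.15 SE; adjusted p in edgeR 0.693). Rtp4, a chaperone-like induced protein, was at 69.8, 23.8 and 36.9 CPM in the null libraries, against 46.4 and 50.3 CPM in the WT libraries. Ifi27 was at 49.7, 25.9 and 28.1 CPM in the null libraries, against 33.7 and 33.8 CPM in the WT libraries. In Rtp4 and Ifi27 the WT libraries lay close together, with null library 1 above and null libraries 2 and 3 below them. Ifi44 had the same shape, with 23.6, 10.0 and 8.75 CPM in the null libraries, against 15.4 and 12.8 CPM in the WT libraries. Ifi27l2a, in the same gene pair as Ifi27, had 80, 16 and 35 counts in the null libraries, against 31 and 20 counts in the WT libraries. Epsti1 and Lgals3bp had log2 fold changes of -0.19 ± 0.13 and -0.20 ± 0.14 (SE), with null library 1 inside the WT range for both. Xaf1, which promotes cell death, and Ifi35 had log2 fold changes of -0.12 and -0.11.

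Members with and without the promoter motif did not part by library. The 18 tested members with the motif in their window had medians, relative to the WT mean, of 0.29 in null library 1, -0.27 in null library 2 and -0.19 in null library 3. The 17 tested members with a window and no match had 0.37, -0.28 and -0.18 in the same order. Null library 1 was the highest library for 13 of the 18 and 12 of the 17.

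The tested parts of the pathway outside the members varied less among null libraries than the members did. Of 21 interferon ligand genes, none had enough counts to test. The Ifna genes, Ifnb1 and Ifng were among those with 0 counts in every library, Ifnab had 1 count in each of null libraries 1 and 3, and Ifne had 3 counts in null library 2. A count of 0 allows up to 3 counts in a library (counting error only), so lower ligand levels were not detectable at this depth. Of 7 receptor and kinase genes, 0 passed in edgeR. Ifnar1 was at 149, 142 and 152 CPM in the null libraries, against 143 and 140 CPM in the WT libraries (log2 fold change 0.07 ± 0.10 SE; adjusted p in edgeR 0.867). The median range among null libraries was 0.19 for the receptor and kinase genes, against 0.74 for the members.

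Among 7 STAT and IRF genes outside the members, 1 rose and 0 fell in edgeR, against 2.15% and 0.334% of all tested genes. Irf8, a factor of myeloid, dendritic and B-cell development, was at 159, 86.6 and 77.7 CPM in the null libraries, against 39.1 and 34.5 CPM in the WT libraries. All null libraries were above WT, with a log2 fold change of 1.54 ± 0.26 (SE; adjusted p in edgeR 0.00728), which was 1.16 without null library 1 (adjusted p = 0.000111) and lost its call without WT library 1 (0.115) or WT library 2 (0.305). Of 13 tested sensors and adaptors outside the members, 1 rose and 0 fell, against the same shares of all tested genes. Tlr9, the endosomal sensor of bacterial DNA, was at 16.5, 9.63 and 11.1 CPM in the null libraries, against 4.31 and 5.84 CPM in the WT libraries (log2 fold change 1.29 ± 0.30 SE; adjusted p in edgeR 0.0400). Tlr9 did not pass in limma-voom (adjusted p = 0.0884) or without null library 1 (0.103), WT library 1 (0.210) or WT library 2 (0.274). Trex1 had 0 counts in every library, and all 1147 bases of its exons overlap those of Atrip in the annotation.

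Among 45 tested induced genes outside the members, 1 rose and 0 fell in edgeR, against 2.15% and 0.334% of all tested genes. Before adjustment 1 was higher and 3 lower with p under 0.05 in edgeR, against 7.99% and 4.84% of tested genes. Ifi209, a HIN-200 gene near Ifi204 on chromosome 1, was at 15.1, 6.33 and 7.27 CPM in the null libraries, against 2.34 and 2.71 CPM in the WT libraries (log2 fold change 1.92 ± 0.42 SE; adjusted p in edgeR 0.0322). Ifi209 did not pass in limma-voom (adjusted p = 0.124) or without null library 1 (0.0523), WT library 1 (0.192) or WT library 2 (0.362). None of 7 feedback inhibitors passed, and Socs1, which blocks the receptor kinases, was at 5.06, 3.96 and 2.84 CPM in the null libraries, against 3.69 and 5.98 CPM in the WT libraries. Relative to the WT mean, the median of the 45 induced genes was 0.15 in null library 1, -0.07 in null library 2 and -0.06 in null library 3. Null library 1 was the highest library for 21 of the 45 and 4 of the 7 feedback inhibitors, against 17.8% of all tested genes. The median range among null libraries was 0.373 for the 45 genes and 0.19 for the feedback inhibitors, against 0.285 for all tested genes.

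**Figure D5:**
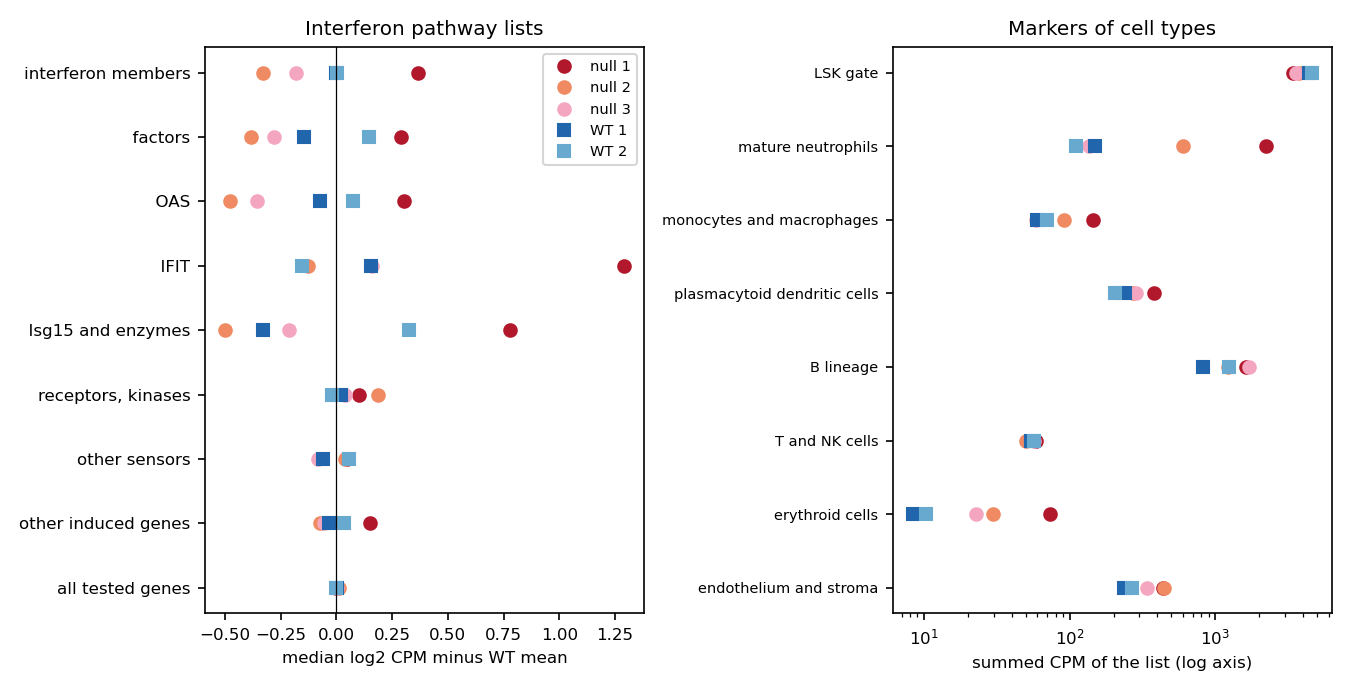
Left, median log2 CPM minus the WT mean for the members, 4 of their role groups, lists of the rest of the pathway and all tested genes, with 1 point per library (circles null, squares WT). Right, summed CPM of cell type marker lists on a log axis. Null library 1 has the highest medians of the members, their role groups and the other induced genes, and the highest neutrophil sum. Null library 2 has the lowest median of the members and the 2nd highest neutrophil sum.

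Summed markers of neutrophils, monocytes, plasmacytoid dendritic cells and erythroid cells were highest in null library 1. The sum of T and NK markers was also highest there, by a small margin (58.6 CPM, against 57.25 CPM in WT library 2). B-lineage markers summed highest in null library 3 over all 12 genes, but in null library 1 without the immunoglobulin genes Ighm and Igkc. Those of endothelium and stroma were highest in null library 2. In bulk libraries, fewer cells of a type and less RNA per cell cannot be told apart. The 13 mature neutrophil markers summed to 2249, 602 and 136 CPM in null libraries 1, 2 and 3, against 149 and 110.5 CPM in the WT libraries. None of the 10 tested passed in edgeR, and 9 were higher with p under 0.05 before adjustment, while 3 of 9 passed without null library 1. Within each library at least 11 of the 13 had a count. Mmp8 had no count in null library 3 or in WT, Ly6g none in null library 3 and Retnlg none in WT library 2. The 12 monocyte and macrophage markers summed to 145, 91.05 and 58.7 CPM in the null libraries, against 59.6 and 70.35 CPM in the WT libraries, and 2 of the 8 tested, Ccr2 and F13a1, rose. Null library 2 had the 2nd highest sums of both lists and the lowest median of the interferon members. The 9 markers of plasmacytoid dendritic cells, a major source of interferon, summed to 381, 272 and 285 CPM in the null libraries, against 240 and 205 CPM in the WT libraries, and 2 of the 8 tested, Irf8 and Ly6d, rose. Ccr9, of the same list, was at 11.5, 10.2 and 14.4 CPM in the null libraries, against 22.5 and 16.4 CPM in the WT libraries, and did not pass (log2 fold change -0.70 ± 0.21 SE; adjusted p in edgeR 0.149). That list holds Bst2 and Irf8, its defining marker Siglech was at 8.93, 2.51 and 0.617 CPM in the null libraries, against 2.22 and 0.427 CPM in the WT libraries, and Klk1 had no count in any library. The 12 B-lineage markers summed to 1626, 1225 and 1693 CPM in the null libraries, against 820 and 1246 CPM in the WT libraries, with 10 higher and 1 lower in edgeR. Most of the WT sums came from the immunoglobulin genes Ighm and Igkc. Without them, a choice made after their values were seen, the other 10 summed to 922, 526 and 872 CPM in the null libraries, against 163 and 70.2 CPM in the WT libraries. Of 11 endothelial and stromal markers 6 rose, of 3 tested erythroid markers 1 rose, and of 2 tested T and NK markers none passed. Without null library 1 the number of calls was 2 among monocyte, 2 among plasmacytoid, 11 among B-lineage, 7 among endothelial and stromal and 1 among erythroid markers. The part of these cells in the interferon values was not tested.

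Markers of the LSK gate were read in every library. Their sums over 12 genes were 3422, 3770 and 3581 CPM in the null libraries, against 4415 and 4623 CPM in the WT libraries. None of these 12 rose, and the stem cell gene Hlf fell, a call lost without null library 1 (adjusted p in edgeR 0.140). Ly6a was at 29.8, 12.9 and 24.0 CPM in the null libraries, against 26.8 and 30.3 CPM in the WT libraries. As for most interferon members, null library 2 had the lowest value of Ly6a, and the log2 fold change of -0.36 ± 0.26 (SE) did not pass (edgeR adjusted p = 0.644).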

How the data were processed

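Per the labels' protocols, 3.6 to 5 ng of RNA from each sort entered a low-input kit with depletion probes, read as 50-base pairs. STAR, featureCounts and mm10 are named per the submitters' processing notes. The sources used here give no versions, annotation release, strand setting or rule for reads with several matches, so members whose exons overlap another gene (Irf7, Irf9, Parp9, Dtx3l, Rtp4, Usp18, Herc6, Slfn5, Dhx58 and others) are uncertain there. Values are raw gene counts as deposited, a column for each library. 99.5% of identifiers matched GENCODE M21, which gave symbols, coordinates and merged exon lengths.

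Genes were kept with filterByExpr by group (13467 of 39056), scaled with TMM and tested with edgeR 4.0.16 quasi-likelihood in R 4.3.3, genotype as the only term, Benjamini-Hochberg over all tested genes, threshold 0.05. Standard errors and 95% intervals were derived from the F statistic. Log2 CPM used a prior count of 2. Alternatives were RLE and upper quartile factors, 2 other filters, DESeq2 1.42.0, limma-voom 3.58.1, a threshold of 0.1 and each library left out. The code was tested on simulated data. Libraries of 1 group differed by more than sampling noise (chi-square per degree of freedom 8.08 to 12.8).

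Members and gene lists were chosen with earlier results of these data known. Values in every library are given for the 8 members with the lowest p, the 8 with the highest TPM, the 8 with the widest null range among those of at least 5 CPM, 11 best known members and every pathway gene past the threshold; others were added where a role is described, after their values were seen. 1 list entry matched no gene, and Cgas was matched through an older symbol.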

Additional observations from a re-analysis of the deposited data

How the results depend on the processing

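No member passed the threshold in any alternative, and the 283 alternative values of 26 members kept their side of the threshold (Oas1g and Ifit3 were not tested with at least 1 CPM in every library, nor Ifit3 without null library 1), the lowest adjusted p being 0.0525 (Slfn2, no filter). 13 of the 26 turned sign somewhere. Ifi27 was -0.034 in limma-voom. Leaving out 1 library at a time gave member medians of -0.25 (without null library 1) to 0.16 (without null library 2), and log2 fold changes on both sides of 0 for 13 members: Bst2 -0.348 to 0.083, Dtx3l -0.079 to 0.339, Ifi27 -0.319 to 0.208, Ifi44 -0.587 to 0.251, Ifit1 -0.235 to 0.541, Irf7 -0.390 to 0.449, Irf9 -0.362 to 0.007, Isg15 -0.400 to 0.492, Oas2 -0.431 to 0.047, Rtp4 -0.668 to 0.145, Stat2 -0.172 to 0.231, Usp18 -0.394 to 0.726, Zbp1 -0.106 to 1.201. The members' medians in null libraries 1, 2 and 3 were 0.37, -0.35 and -0.18 with RLE factors and 0.30, -0.34 and -0.21 with total counts, scalings chosen after seeing the data; null library 1 was then the highest library for 35 and 33 members. Over all genes, no filter gave 602 higher and 155 lower, at least 1 CPM in every library 173 higher, and an adjusted p under 0.1 81 lower. Leaving out 1 library gave 32 to 316 higher and 0 to 51 lower, the 0 without WT library 2, where 339 were lower before adjustment (p under 0.05), DESeq2 gave 6 and limma-voom 0. Gabbr1 ranged from -0.71 to -0.48 and lost its call without WT library 1 (adjusted p 0.0722), WT library 2 (0.380), null library 2 (0.0802) or null library 3 (0.137). No paired analysis was possible because replicate numbers follow only the order of the samples. A fit with a single WT library takes its spread from the null libraries. Intervals cover the spread between these 5 libraries.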
